A study of Mus musculus with 12 samples.

Results

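The 10 genes described here encode hepatocyte growth factor (HGF, gene Hgf), its receptor MET (Met), the proteases and inhibitors that control HGF activation (Hgfac, St14, Hpn, Spint1 and Spint2), the docking protein Gab1, and the receptors Mst1r (RON) and Plxnb1 (plexin B1), which are related to MET. They were taken by name from the platform annotation, where each had 1 transcript cluster (the probe set that represents a gene) with a single symbol. They are 10 of the 19938 genes so annotated, and all 10 were among the 15868 genes tested.

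HGF is secreted as an inactive single chain, mostly by mesenchymal cells, and acts on epithelial cells that carry MET. Serine proteases at the cell surface or in plasma cut it into its active form, and membrane-bound Kunitz inhibitors restrain those proteases. Active MET phosphorylates its own tail, recruits Gab1 and signals through the ERK, PI3K and STAT3 pathways, and in skin this route serves wound closure and keratinocyte migration.

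Primary keratinocytes, the main cells of the epidermis, were cultured from FVB/N mice and profiled on 12 arrays in 4 groups of 3. MT-HGF+AG1478 cells carried the HGF transgene, were mock transduced, and were treated for 24 h in 8% serum with AG1478, an inhibitor of the epidermal growth factor receptor (EGFR) kinase. MT-HGF cells carried the same transgene and had no inhibitor named in their labels. RAS cells were wild-type cells that had received v-rasHa, the oncogene of a mouse sarcoma virus derived from Hras, by transduction, and wild-type cells were the control. In MT-HGF mice a metallothionein promoter drives the Hgf transgene, so it is not restricted to keratinocytes. The labels call the 9 arrays without AG1478 biological replicates and number the AG1478 arrays only as replicates. Neither animal ages nor the number of animals or separate cultures is given. The p-values therefore reflect array-to-array variation alone, some of which may be technical. A note on 3 days of RAS transduction stands on all 9 arrays without AG1478, and what was done to the MT-HGF and wild-type cells at that stage is not stated. The AG1478 arrays differ from the MT-HGF arrays also in their stated mock transduction, serum and extraction wording, and the inhibitor and these differences cannot be told apart. No vehicle-treated array was used here.

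The medians of the arrays ran from 6.77 to 6.84 on the log2 scale, with correlations of 0.993 to 0.997 within groups. All 9 keratinocyte markers, among them Krt5, Krt14 and Trp63, were above the array background on 12 of 12 arrays, with a mean level of 11.66 to 11.69 in MT-HGF+AG1478, 10.83 to 10.90 in MT-HGF, 11.19 to 11.39 in RAS and 11.36 to 11.41 in wild-type cells. Within that list the differentiation keratins varied most. Krt1 averaged 12.84, 8.07, 10.68 and 12.02 and Krt10 averaged 10.23, 7.32, 8.99 and 10.63 in MT-HGF+AG1478, MT-HGF, RAS and wild-type cells, against 13.38 to 13.48 for Krt5 over the groups. That background was the 95th percentile on each array of the 157 chemosensory receptor genes, of 1228 measured, that passed the filter on low values. It stood at 6.80 to 7.13 log2 units. All 8 melanocyte markers were above it on 12 arrays too, with a mean level of 9.73 to 9.83 in MT-HGF+AG1478, 9.69 to 9.88 in MT-HGF, 10.09 to 10.24 in RAS and 9.98 to 10.17 in wild-type cells. Of 10 fibroblast markers, all but Lum and Postn were above it on 12 arrays (mean level of the list 8.49 to 8.51, 8.43 to 8.51, 8.15 to 8.18 and 8.76 to 8.83 in the same order of groups). Of 5 leukocyte markers tested, Ptprc and Itgam were above it on 0 arrays, Cd3e on 4 and Cd68 on 12, with a Cd68 mean of 10.08, 10.24, 10.25 and 8.97 in the same order. Lyz2 was above it on 3 arrays, those of wild-type cells (mean 7.69). All 5 endothelial markers tested were above it on 0 arrays. Against the lower 95th percentile of all 1228 chemosensory genes (6.09 to 6.33), Vwf and Tie1 would be above background on every array and Cdh5 on none. Pecam1 would be above it on every MT-HGF and RAS array, on MT-HGF+AG1478 replicate 3 and on no wild-type array. Tek would be above it on the wild-type arrays only. The cultures thus also held transcripts that mark melanocytes and fibroblasts, and in such bulk RNA a change in the number of cells of a type and a change in RNA per cell cannot be told apart. The part of these marker levels in the results was not tested.

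**Figure D1:**
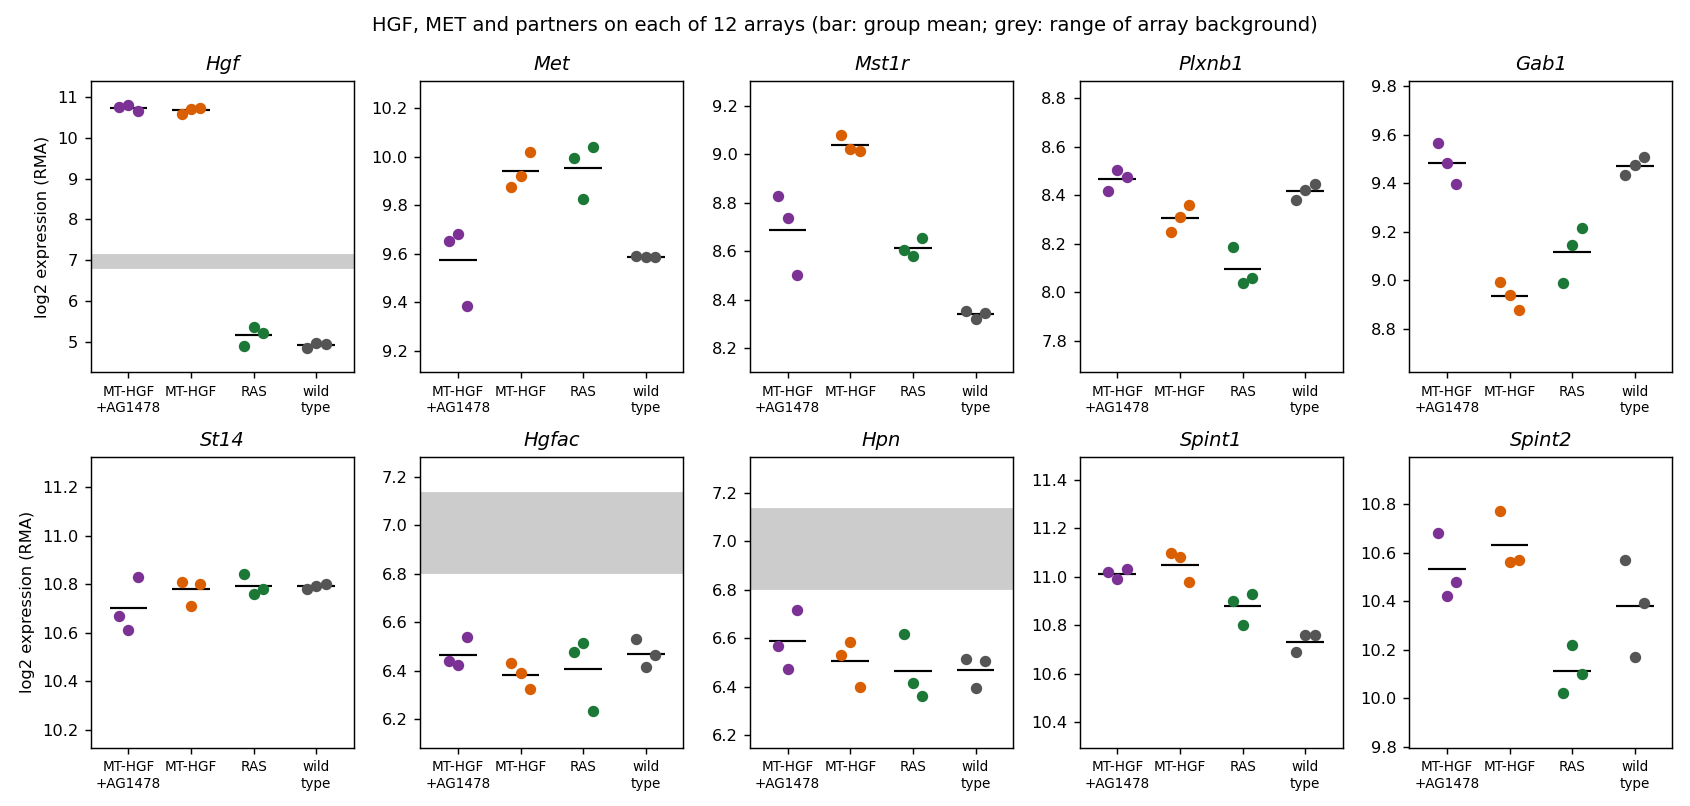
Each panel plots 1 gene, with the log2 expression value (RMA) of each array as a point, the group mean as a bar, and the 4 groups along the x axis. Hgf splits into MT-HGF groups near 10.7 and other groups near 5, Met and Mst1r are higher and Gab1 lower in MT-HGF and RAS than in wild-type cells, and Hgfac and Hpn stay below the grey range of array background.

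Hgf was the transgene and separated the arrays that carry it from those that do not. Its log2 level was 10.77, 10.80 and 10.66 in MT-HGF+AG1478 cells, 10.59, 10.72 and 10.73 in MT-HGF cells, 4.90, 5.36 and 5.22 in RAS cells and 4.85, 4.96 and 4.93 in wild-type cells. All 6 arrays with the transgene were far above background, and all 6 without it were below it. A fold against a group below background is a bound, so Hgf was at least 13.3-fold higher in MT-HGF than in wild-type cells (log2 bound 3.73, n = 3 arrays each) and likewise higher than in RAS cells (log2 bound 3.70). Because these cultures carry the transgene by design, this difference is a check of the labels and is given with no test. Hgf also passed the filter on low values only through the arrays with the transgene. The single cluster for Hgf does not separate the transgene's RNA from that of the cell's own gene. AG1478-treated and untreated MT-HGF cells overlapped in Hgf, with a log2 difference of 0.06 (95% interval -0.14 to 0.26, adjusted p = 0.688). Hgf in RAS cells was not above background, so no difference from wild-type cells is given.

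The metallothionein genes Mt1 and Mt2, whose products bind zinc and other metals, carry promoters of this kind in the cells' own genome. Mt1 averaged 10.78, 10.60, 10.29 and 10.51 log2 units in MT-HGF+AG1478, MT-HGF, RAS and wild-type cells, and was above background on 12 arrays. Mt2 was higher by 0.25 ± 0.063 log2 units in MT-HGF than in wild-type cells (SE, adjusted p = 0.00431), and Mt1 differed by 0.10 (adjusted p = 0.43). Metal response elements, the sites through which such promoters answer to metals, were searched on both strands of RefSeq promoter windows (build GRCm38.p6, 250 bases before to 50 after a start) as TGCGCNC and TGCACNC. At least 1 match stood in 25.7% of all 32851 windows. The Mt1 window held 3 and each of the 2 windows of the cell's own Hgf gene held 0. Of the other members with a window, Spint2 held 1 and the rest 0. The Mt1 window (chr8:94178839-94179138, + strand) is shown because the transgene takes its name from this gene family, with these matches in capitals. The construct's own sequence was not used here.
Mt1: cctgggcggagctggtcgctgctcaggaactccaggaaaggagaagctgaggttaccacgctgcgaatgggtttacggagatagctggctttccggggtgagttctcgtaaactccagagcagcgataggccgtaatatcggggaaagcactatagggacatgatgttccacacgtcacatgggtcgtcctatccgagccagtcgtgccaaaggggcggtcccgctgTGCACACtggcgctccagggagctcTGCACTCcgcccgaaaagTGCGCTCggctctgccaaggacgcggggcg

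Met, the HGF receptor, was higher in MT-HGF and in RAS cells than in wild-type cells, by about the same amount, and lay near the wild-type level in AG1478-treated cells. Its level was 9.65, 9.68 and 9.39 in MT-HGF+AG1478 cells, 9.87, 9.92 and 10.02 in MT-HGF cells, 9.99, 9.83 and 10.04 in RAS cells and 9.59, 9.59 and 9.59 in wild-type cells. All arrays of MT-HGF and RAS cells lay above all of wild-type and AG1478-treated cells. Met rose by 0.35 ± 0.082 log2 units in MT-HGF over wild-type cells (1.28-fold, SE, adjusted p = 0.00236) and by 0.36 ± 0.082 in RAS over wild-type cells (1.29-fold, adjusted p = 0.00244). MT-HGF and RAS cells did not differ beyond the spread between arrays (-0.01, 95% interval -0.19 to 0.16, adjusted p = 0.939). Under AG1478 Met fell by 0.37 ± 0.082 log2 units relative to MT-HGF cells (adjusted p = 0.00505), and the difference of AG1478-treated from wild-type cells was -0.02 (interval -0.19 to 0.16, adjusted p = 0.899). The lowest of the 12 values was that of AG1478 replicate 3. Without that array Met fell by 0.27 relative to MT-HGF cells, and the difference from wild-type cells was 0.08. Of the 8 melanocyte markers, 6 were lower in MT-HGF than in wild-type cells, where 23.9% of all genes were lower. In RAS over wild-type cells 0 were called (32.5% of all genes), as in AG1478-treated over MT-HGF cells (16.5%). The group means of Krt1 and Krt10 were lower in MT-HGF and RAS cells, where Met was higher and Gab1 lower, than in wild-type and AG1478-treated cells. Ivl, another marker of that keratinocyte list, went the other way. It averaged 12.33 in MT-HGF and 12.45 in RAS cells, against 11.59 in wild-type and 11.69 in AG1478-treated cells. Epcam was lowest in wild-type cells (8.07, against 10.06, 10.13 and 9.75 in MT-HGF+AG1478, MT-HGF and RAS cells). The part of these markers in the values of Met and Gab1 was not tested.

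Mst1r encodes RON, the other receptor of the MET family, which binds macrophage-stimulating protein (MSP). Apart from Hgf it varied most among the members, with group means 0.70 log2 units apart. It measured 8.83, 8.74 and 8.50 in MT-HGF+AG1478 cells, 9.08, 9.02 and 9.01 in MT-HGF cells, 8.61, 8.58 and 8.66 in RAS cells and 8.35, 8.32 and 8.35 in wild-type cells. Every MT-HGF array was above every other array, and every wild-type array was below every other. Mst1r rose by 0.70 ± 0.075 log2 units in MT-HGF over wild-type cells (1.62-fold, SE, adjusted p = 9.88e-07), by 0.27 ± 0.075 in RAS over wild-type cells (adjusted p = 0.00949) and by 0.43 ± 0.075 in MT-HGF over RAS cells (adjusted p = 0.000497). Under AG1478 it fell by 0.35 ± 0.075 relative to MT-HGF cells (adjusted p = 0.00358), and it was higher than in wild-type cells by 0.35 ± 0.075 (adjusted p = 0.00118). They overlapped with RAS cells (0.08, adjusted p = 0.485).

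The gene for the ligand of RON, Mst1, was also highest in MT-HGF cells. Mst1 measured 7.86, 7.90 and 7.78 in MT-HGF+AG1478 cells, 8.21, 8.07 and 8.04 in MT-HGF cells, 7.48, 7.40 and 7.28 in RAS cells and 7.43, 7.44 and 7.49 in wild-type cells. It rose by 0.65 ± 0.070 log2 units in MT-HGF over wild-type cells (SE, adjusted p = 1.01e-06) and by 0.72 ± 0.070 over RAS cells (adjusted p = 1.39e-06). Unlike the receptor, it was not called in RAS over wild-type cells (-0.07, adjusted p = 0.542). Under AG1478 it fell by 0.26 ± 0.070 relative to MT-HGF cells (adjusted p = 0.0173) and was higher than in wild-type cells by 0.39 (adjusted p = 0.000228). The fall was not called without AG1478 replicate 3 (adjusted p = 0.0626) or MT-HGF replicate 1 (adjusted p = 0.0804).

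Plxnb1 encodes plexin B1, a receptor for the semaphorin Sema4d that can associate with MET. It measured 8.42, 8.51 and 8.47 in MT-HGF+AG1478 cells, 8.25, 8.31 and 8.36 in MT-HGF cells, 8.19, 8.04 and 8.06 in RAS cells and 8.38, 8.42 and 8.45 in wild-type cells. RAS cells were the lowest group on all 3 arrays. Plxnb1 fell by 0.32 ± 0.064 log2 units in RAS over wild-type cells (adjusted p = 0.000881). In MT-HGF cells the log2 difference from wild type was -0.11 (interval -0.25 to 0.03, adjusted p = 0.202), although the arrays did not overlap. The log2 difference of MT-HGF from RAS cells was 0.21 ± 0.064 (adjusted p = 0.0218). That call was lost without MT-HGF replicate 2 or 3 or RAS replicate 2 or 3, at adjusted p = 0.0698 to 0.0943. AG1478-treated cells were higher than RAS cells by 0.37 ± 0.064 (adjusted p = 0.000241), and not called against MT-HGF cells (0.16, adjusted p = 0.107) or wild-type cells (0.05, adjusted p = 0.574).

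Gab1, the adaptor that docks on active MET and links it to PI3K and ERK signalling, moved the other way from Met. It measured 9.57, 9.48 and 9.40 in MT-HGF+AG1478 cells, 8.99, 8.94 and 8.88 in MT-HGF cells, 8.99, 9.15 and 9.21 in RAS cells and 9.43, 9.48 and 9.51 in wild-type cells. All MT-HGF and RAS arrays were below all arrays of the other groups. Gab1 fell by 0.54 ± 0.072 log2 units in MT-HGF over wild-type cells (1.45-fold, SE, adjusted p = 1.22e-05) and by 0.36 ± 0.072 in RAS over wild-type cells (adjusted p = 0.000976). MT-HGF cells were not called against RAS cells (-0.18, adjusted p = 0.0771). They were called once RAS replicate 1, the lowest RAS array, was left out (-0.24, adjusted p = 0.0251). With all arrays kept they were called after quantile normalization (-0.20, adjusted p = 0.0324) and with array weights (-0.19, adjusted p = 0.0228). AG1478-treated cells were higher than MT-HGF cells by 0.55 ± 0.072 (1.46-fold, adjusted p = 4.30e-05) and higher than RAS cells by 0.37 ± 0.072 (adjusted p = 0.000706). Their difference from wild-type cells was 0.01 (interval -0.14 to 0.16, adjusted p = 0.922).

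**Figure D2:**
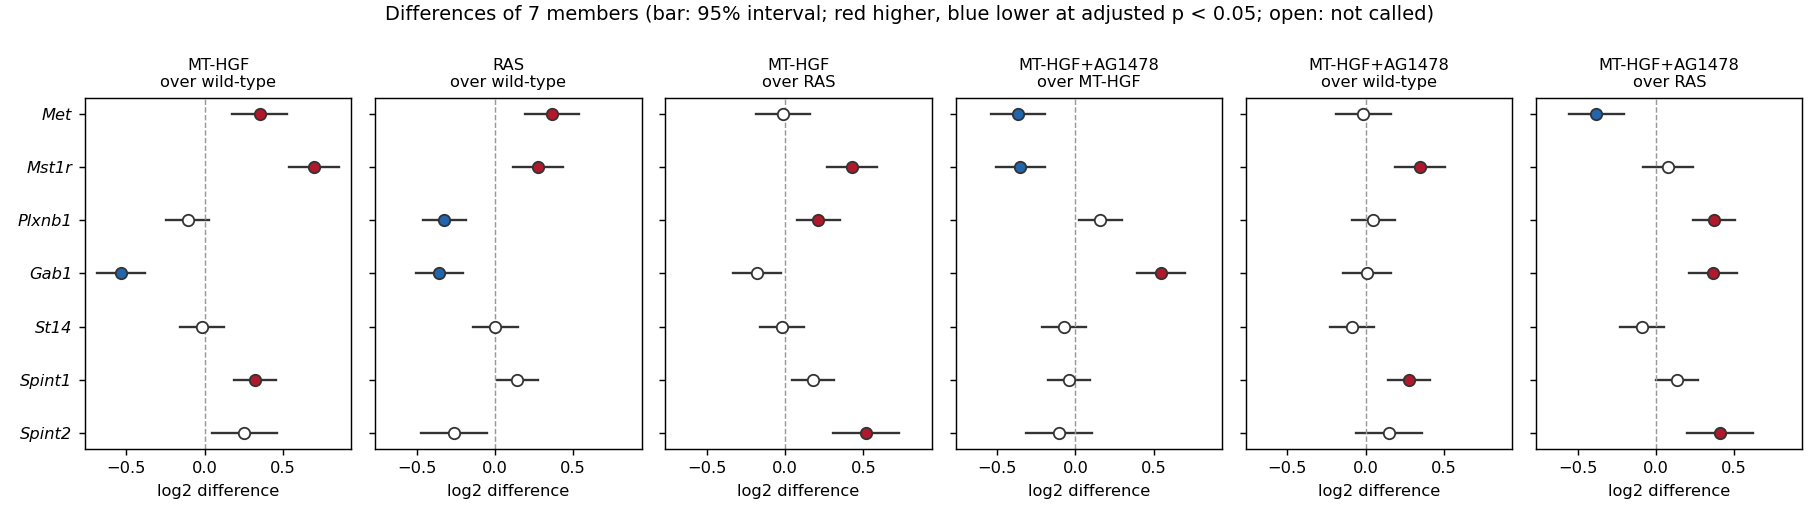
Each panel plots 1 comparison, with the log2 difference of group means on the x axis, the gene on the y axis and the 95% interval of limma's moderated fit as a bar. Met and Gab1 lie on opposite sides of 0 in MT-HGF and in RAS over wild-type cells, on opposite sides again, exchanged, in AG1478-treated over MT-HGF cells, and lie at 0 in AG1478-treated over wild-type cells, whereas Mst1r and Spint1 stay above 0 there.

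Of the 3 HGF-activating proteases only St14 was above background. St14 encodes matriptase, a membrane protease of the epidermis that cuts the HGF precursor. It measured 10.67, 10.61 and 10.83 in MT-HGF+AG1478 cells, 10.81, 10.71 and 10.80 in MT-HGF cells, 10.84, 10.76 and 10.78 in RAS cells and 10.78, 10.79 and 10.80 in wild-type cells. The groups overlapped, and no comparison called it. In AG1478-treated over wild-type cells the difference was -0.09 (adjusted p = 0.317). With array weights it was called lower there (-0.14, adjusted p = 0.0101). The difference of MT-HGF from wild-type cells was -0.02 (interval -0.16 to 0.13), and that of RAS from wild-type cells was 0.00 (interval -0.14 to 0.14, adjusted p = 0.982). Hgfac, the HGF activator of plasma, ranged from 6.23 to 6.54 and Hpn, the membrane protease hepsin, from 6.36 to 6.72 over the 12 arrays. Both were above background on 0 of 12 arrays, so no differences are given, and the fit called neither gene in any of the 6 comparisons. Against the lower 95th percentile of all 1228 chemosensory genes on the arrays (6.09 to 6.33) both would count as above background on 12 of 12.

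The Kunitz inhibitors of these proteases were both well above background. Spint1 (HAI-1, the main partner of matriptase) measured 11.02, 10.99 and 11.03 in MT-HGF+AG1478 cells, 11.10, 11.08 and 10.98 in MT-HGF cells, 10.90, 10.80 and 10.93 in RAS cells and 10.69, 10.76 and 10.76 in wild-type cells. Both groups with the transgene lay above wild-type cells on every array. Spint1 rose by 0.32 ± 0.063 log2 units in MT-HGF over wild-type cells (1.25-fold, adjusted p = 0.000567) and by 0.28 ± 0.063 in AG1478-treated over wild-type cells (adjusted p = 0.00176). AG1478-treated and MT-HGF cells were not called apart (-0.04, interval -0.17 to 0.09, adjusted p = 0.702), and neither were RAS and wild-type cells (0.14, adjusted p = 0.0968). MT-HGF over RAS cells missed the threshold at 0.18 (adjusted p = 0.0506) and passed it without MT-HGF replicate 3 (0.21, adjusted p = 0.0352). With all arrays kept it passed under 5 alternatives: no filter, the stricter filter, array weights, an intensity trend and the mean of clusters (adjusted p = 0.00437 to 0.0498).

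Spint2 (HAI-2) was spread more widely within groups than Spint1. It measured 10.68, 10.42 and 10.48 in MT-HGF+AG1478 cells, 10.77, 10.56 and 10.57 in MT-HGF cells, 10.02, 10.22 and 10.10 in RAS cells and 10.57, 10.17 and 10.39 in wild-type cells. RAS cells were lower than both transgenic groups on every array, and wild-type cells had the widest spread (SD 0.20, n = 3). Spint2 was higher in MT-HGF than in RAS cells by 0.52 ± 0.099 log2 units (1.43-fold, adjusted p = 0.00101) and higher in AG1478-treated than in RAS cells by 0.41 ± 0.099 (adjusted p = 0.00358). Against wild-type cells neither MT-HGF (0.25, adjusted p = 0.051) nor RAS cells (-0.26, adjusted p = 0.0524) passed the threshold. Both results changed with the setting. With all arrays kept, MT-HGF passed under 4 alternatives, the stricter filter, array weights, replicate block and intensity trend (adjusted p = 0.0114 to 0.0459). RAS passed under these and under median centring (adjusted p = 0.0357 to 0.0477). With single arrays left out, MT-HGF passed without wild-type replicate 1 (0.35, adjusted p = 0.00982), and RAS passed without RAS replicate 2 (-0.32, adjusted p = 0.0461) or wild-type replicate 2 (-0.37, adjusted p = 0.0114).

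The counts of members called are given beside those of all genes tested. In MT-HGF over wild-type cells 4 of 10 were higher and 1 lower, where 40.9% of all genes were called, 17.1% higher and 23.9% lower, and the median difference was 0.14 log2 units for the members and -0.03 for all genes. In RAS over wild-type cells 2 were higher and 2 lower, against 32.5% of all genes, 12.6% higher and 19.9% lower. In MT-HGF over RAS cells 4 were higher and 0 lower, against 26% of all genes, 13.4% higher and 12.6% lower. For AG1478-treated over MT-HGF cells 1 was higher and 2 were lower, against 16.5% of all genes, 6.57% higher and 9.91% lower. AG1478-treated cells had 3 members higher and 0 lower than wild-type cells, where 42.9% of all genes were called, 16.8% higher and 26.2% lower. Over RAS cells they had 4 members higher and 1 lower, against 36.7% of all genes, 16.3% higher and 20.4% lower. In the 4 comparisons of transgenic with other cells Hgf is 1 of the members counted higher, by design. These comparisons share arrays of the same groups and are not independent of each other.

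Promoter windows are shown for Met, Spint1 and Mst1r, which were higher in MT-HGF than in wild-type cells, and for Gab1, which was lower. The AP-1 site, bound by Fos and Jun factors, was searched as TGANTCA, the GC box of Sp1 as GGGCGG and the E-box as CACGTG, on both strands and with no overlap between matches of different motifs in these windows. AP-1 matches stood in 7.81%, GC boxes in 35.7% and E-boxes in 7.15% of all 32851 RefSeq windows. Among the members, Met and Spint1 had 1 AP-1 match each. Met alone had an E-box, 1 in number. GC boxes numbered 5 in Plxnb1, 3 in Met, Spint1, Spint2 and the first window of Hpn, 2 in both windows of Gab1 and the first of Mst1r, and 0 in the windows of Hgf and Hgfac and the second of Hpn and Mst1r. They were thus found in members that were higher, lower or not called in MT-HGF over wild-type cells. Capitals mark the matches to these 3 motifs. Windows are on build GRCm38.p6, at chr6:17463707-17464006 (+ strand) for Met, chr2:119237110-119237409 (+) for Spint1, chr9:107906639-107906938 (+) for the first of 2 starts of Mst1r, and chr8:80880470-80880769 (- strand) for the first of 2 starts of Gab1. A match is a run of letters and shows no binding.
Met: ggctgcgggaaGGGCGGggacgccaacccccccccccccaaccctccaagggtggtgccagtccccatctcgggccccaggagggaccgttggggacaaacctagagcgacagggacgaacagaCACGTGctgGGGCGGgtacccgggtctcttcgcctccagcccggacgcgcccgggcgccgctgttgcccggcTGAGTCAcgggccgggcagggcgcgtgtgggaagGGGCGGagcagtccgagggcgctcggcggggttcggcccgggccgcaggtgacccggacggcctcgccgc
Spint1: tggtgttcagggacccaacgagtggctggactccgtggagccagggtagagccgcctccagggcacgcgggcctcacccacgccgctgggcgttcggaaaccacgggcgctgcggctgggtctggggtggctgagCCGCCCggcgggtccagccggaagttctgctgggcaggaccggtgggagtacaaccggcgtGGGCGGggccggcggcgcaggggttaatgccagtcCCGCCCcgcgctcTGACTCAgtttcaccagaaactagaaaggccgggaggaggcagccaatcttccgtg
Mst1r: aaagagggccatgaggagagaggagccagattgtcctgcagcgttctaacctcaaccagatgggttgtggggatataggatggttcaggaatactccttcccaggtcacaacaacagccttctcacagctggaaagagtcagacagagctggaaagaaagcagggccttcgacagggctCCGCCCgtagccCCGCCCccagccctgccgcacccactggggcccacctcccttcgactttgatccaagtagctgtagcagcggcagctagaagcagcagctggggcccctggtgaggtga
Gab1: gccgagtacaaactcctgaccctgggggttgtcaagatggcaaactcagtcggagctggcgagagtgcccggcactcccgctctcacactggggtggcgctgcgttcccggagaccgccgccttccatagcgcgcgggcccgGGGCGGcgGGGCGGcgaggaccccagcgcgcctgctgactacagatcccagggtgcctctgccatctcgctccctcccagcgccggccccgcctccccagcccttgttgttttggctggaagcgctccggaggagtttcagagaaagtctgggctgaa

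Several proteases that act on HGF or its activators were higher in MT-HGF and RAS cells. They stand in a list of 12 genes around MSP and HGF activation, of which 9 were tested. This list and those below were chosen with earlier results of these data known, so their shares only describe the listed genes. In MT-HGF over wild-type cells 6 of 9 were higher and 0 lower (66.7% called, against 40.9% of all genes). The median there was 0.65 log2 units, against -0.03 for all genes. In RAS over wild-type cells 4 were higher and 1 lower (55.6% called, against 32.5%, median 0.13, against -0.02). Prss8, the membrane protease prostasin that works with matriptase, measured 10.59, 10.47 and 10.66 in MT-HGF+AG1478 cells, 10.56, 10.52 and 10.44 in MT-HGF cells, 10.64, 10.58 and 10.72 in RAS cells and 8.54, 8.86 and 8.82 in wild-type cells. It rose by 1.76 log2 units in MT-HGF (adjusted p = 3.79e-11) and by 1.91 in RAS (adjusted p = 1.54e-11) over wild-type cells. Plau, the urokinase that activates plasminogen, measured 10.88, 10.78 and 10.69 in MT-HGF+AG1478 cells, 11.08, 11.08 and 11.11 in MT-HGF cells, 10.79, 10.70 and 10.68 in RAS cells and 9.57, 9.65 and 9.79 in wild-type cells. It rose by 1.42 in MT-HGF over wild-type cells (adjusted p = 8.58e-11). Tmprss13, a transmembrane serine protease, rose by 1.43 in RAS (adjusted p = 2.88e-11) and by 1.36 in AG1478-treated over wild-type cells (adjusted p = 5.89e-11). For Prss8, Plau and Tmprss13 every wild-type array lay below every array of the other 3 groups.

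Under AG1478 the same list held 1 gene higher and 2 lower than in MT-HGF cells (33.3% called, against 16.5% of all genes). Plat, the tissue plasminogen activator, was higher by 0.45 (adjusted p = 0.000329), and Plau was lower (-0.31, adjusted p = 0.00694), as was Mst1. Plat was lower in RAS than in wild-type cells (-0.25, adjusted p = 0.0136), though not without wild-type replicate 2 (adjusted p = 0.0525) or 3 (adjusted p = 0.0508). Plg, F2 and F12, which encode plasma protease precursors, were above background on 0 arrays. Against the lower background from all chemosensory genes, F12 would be above it on every array, F2 on most and Plg on none.

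**Figure D3:**
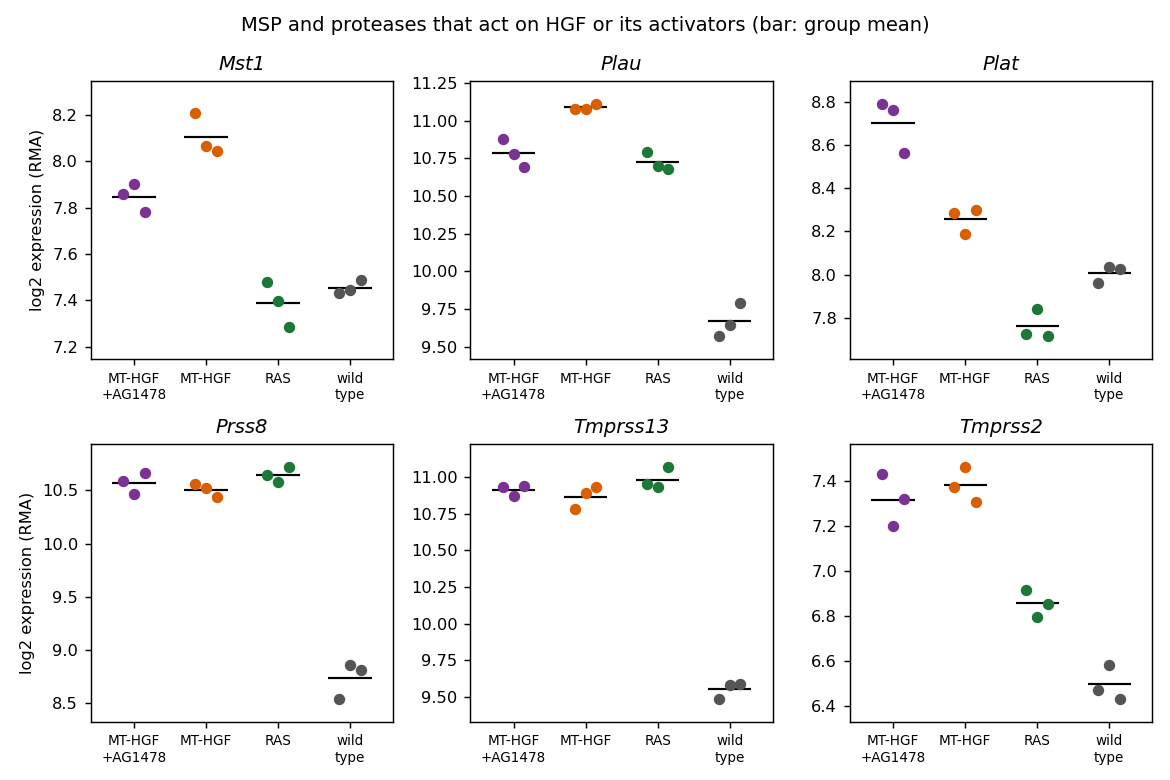
Each panel plots 1 gene, with the log2 expression value (RMA) of each array as a point and the group mean as a bar. Prss8 and Tmprss13 separate wild-type cells from the 3 other groups, Mst1 and Tmprss2 are higher in the 2 groups with the transgene, and Plat is highest in AG1478-treated cells.

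Co-receptors and partners of MET included genes with the directions of Met and genes with those of Gab1. In MT-HGF over wild-type cells 5 of 10 tested were higher and 2 lower (70% called, against 40.9% of all genes). The counts were 4 and 3 in RAS over wild-type cells (70%, against 32.5%). In AG1478-treated over MT-HGF cells they were 2 and 4 (60%, against 16.5%). Itga6, the laminin-binding integrin subunit, rose by 0.69 in MT-HGF (adjusted p = 6.66e-06) and by 0.83 in RAS over wild-type cells (adjusted p = 1.16e-06), and fell by 0.54 under AG1478 (adjusted p = 0.000329). Cd44, whose v6 isoforms serve as co-receptor of MET, rose by 0.55 in MT-HGF over wild-type cells (adjusted p = 1.75e-06) and fell by 0.33 under AG1478 (adjusted p = 0.00131). The array cluster does not separate Cd44 isoforms. Icam1, an adhesion molecule that can stand in for Cd44, was lower in MT-HGF (-0.29, adjusted p = 0.00277) and in RAS (-0.51, adjusted p = 1.86e-05) than in wild-type cells, and higher by 0.58 under AG1478 (adjusted p = 1.47e-05). Fas, a death receptor that MET can bind, was lower in MT-HGF than in wild-type cells and below background there, with a log2 bound of -0.24. The fit's adjusted p = 3.58e-08 belongs to the full difference of -0.97 and not to this bound.

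Adaptors and effectors were called at shares that differed between comparisons. Of 23 tested, 2 were higher and 6 lower in MT-HGF over wild-type cells (34.8% called, against 40.9% of all genes). The median there was -0.09 log2 units, against -0.03 for all genes. Counts were 4 and 4 in RAS over wild-type cells (34.8%, against 32.5% of all genes). They were 1 and 4 in AG1478-treated over MT-HGF cells (21.7%, against 16.5%). Without AG1478 replicate 2 the last counts were 1 and 7, and without AG1478 replicate 3 or MT-HGF replicate 2 they were 1 and 2. Gab2, the closest relative of Gab1 in the list, fell by 0.47 in MT-HGF over wild-type cells (adjusted p = 0.000273), and Pik3r1, the regulatory subunit of PI3K, fell by 0.60 (adjusted p = 3.68e-06). The kinase gene Map2k1 rose by 0.64 (adjusted p = 1.11e-05), and Rasa1, which switches RAS off, rose by 0.49 (adjusted p = 0.000152). Under AG1478 Rasa1 fell by 0.66 (adjusted p = 3.00e-05) and Src, a tyrosine kinase gene, fell by 0.38 (adjusted p = 0.000626), while Stat3 rose by 0.50 (adjusted p = 1.27e-05). In RAS over wild-type cells Stat3 fell by 0.43 (adjusted p = 1.98e-05), and Rasa1 rose by 0.59 (adjusted p = 3.29e-05), as did Ranbp9, a scaffold gene, by 0.56 (adjusted p = 5.12e-05).

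Negative regulators and shedding genes went in both directions. In MT-HGF over wild-type cells 7 of 16 were higher and 5 lower (75% called, against 40.9% of all genes). In RAS over wild-type cells 5 and 2 were (43.8%, against 32.5%), or 3 and 1 without wild-type replicate 2. In AG1478-treated over MT-HGF cells the counts were 2 and 1 (18.8%, near the 16.5% of all genes). Cbl, the ubiquitin ligase that sends active MET for degradation, fell by 0.66 in MT-HGF over wild-type cells (adjusted p = 1.17e-07) and by 0.18 in RAS over wild-type cells (adjusted p = 0.0305). The call in RAS cells was lost without any 1 of 5 of the 6 arrays, all but RAS replicate 3 (adjusted p = 0.0609 to 0.112). Timp3, an inhibitor of the metalloproteases that shed receptors, fell by 2.27 in MT-HGF over wild-type cells (adjusted p = 1.76e-12) and rose by 0.60 under AG1478 (adjusted p = 7.31e-05). Lrig1, which promotes the loss of MET and EGFR, rose by 0.96 in MT-HGF over wild-type cells (adjusted p = 1.02e-08) and fell by 0.39 under AG1478 (adjusted p = 0.00101). The sheddase gene Adam10 rose by 0.24 under AG1478 (adjusted p = 0.0198), a call lost without AG1478 replicate 1 or 2 or MT-HGF replicate 2 (adjusted p = 0.0609 to 0.0789) and after median centring (adjusted p = 0.0522). Dcn, a matrix proteoglycan that binds MET and is also a fibroblast marker, rose by 1.77 in MT-HGF over wild-type cells (adjusted p = 1.50e-10). There 3 of 10 fibroblast markers were higher (17.1% of all genes), Dcn, Col3a1 and Lum (the last below background). The other 7 were lower (23.9% of all genes), among them Thy1 (-1.16, adjusted p = 2.92e-09). The part of fibroblast transcripts in these values was not tested.

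The remaining comparisons gave further counts for these lists. In MT-HGF over RAS cells 4 of 9 genes of the protease list were higher and 0 lower (44.4% called, against 26% of all genes). Tmprss2 was higher there by 0.53 (adjusted p = 6.23e-05). It was above background on 7 of 12 arrays, and its RAS mean of 6.86 lay within the background range of 6.80 to 7.13. Its wild-type mean of 6.50 lay below that range. Of the adaptors 2 of 23 were higher and 5 lower (30.4% called, against 26%), or 1 and 3 without MT-HGF replicate 1 or 2. In AG1478-treated over wild-type cells 6 of 9 genes of the protease list, the ligand gene Mst1 among them, were higher and 0 lower. That is 66.7% called, against 42.9% of all genes. Prss8 was higher there by 1.83 (adjusted p = 3.02e-11). Of the adaptors 2 were higher and 10 lower (52.2%, against 42.9%), Rapgef1 among them (-0.60, adjusted p = 3.01e-06). Over the alternatives with all arrays kept, the Rapgef1 difference ran from -0.63 to -0.23. In AG1478-treated over RAS cells 2 adaptors were higher and 12 lower (60.9% called, against 36.7% of all genes), or 2 and 7 without RAS replicate 3. Stat3 was higher there by 0.84 (adjusted p = 1.29e-08) and Rasa1 lower (-0.76, adjusted p = 2.49e-06).

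**Figure D4:**
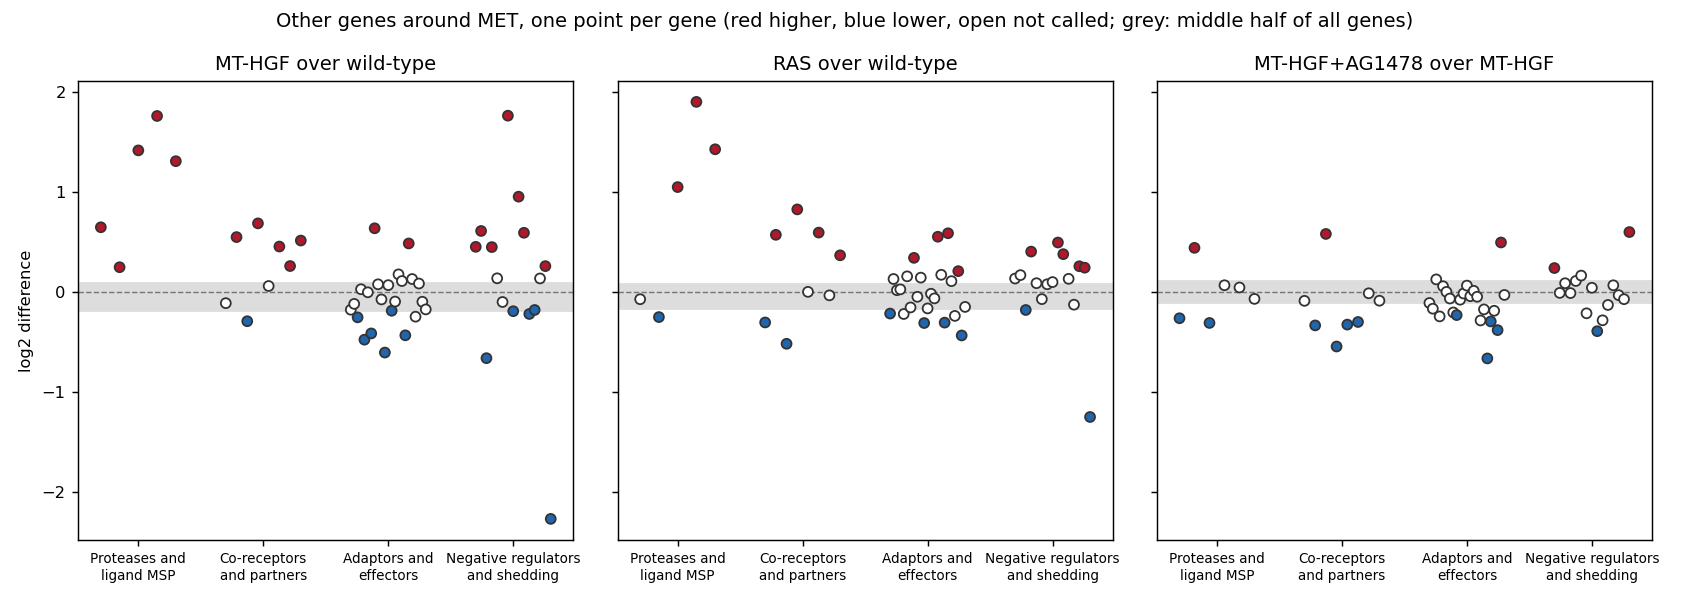
Each point is 1 gene that was above background in both groups on at least 1 array, with its log2 difference on the y axis and the 4 lists along the x axis, in 3 comparisons. The grey band holds the middle 50% of all genes tested, Prss8, Plau and Tmprss13 of the protease list lie above it in MT-HGF and in RAS over wild-type cells, and Plat lies below it in RAS over wild-type cells.

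The genes most like Met and Mst1r were ranked by Pearson correlation over the 12 arrays, which fall into 4 groups, so the values mostly describe group means. Nearest to Met were Nudt4 (0.971), Hspa13, Gfpt1, Ssr3 and Ogfrl1 (down to 0.958). Nearest to Mst1r were Ero1a (0.996), Hsd17b7, Mir31, Has3 and Sel1l (down to 0.969). Ero1a, an oxidase of the endoplasmic reticulum, averaged 10.58, 11.28, 10.48 and 9.98 log2 units in MT-HGF+AG1478, MT-HGF, RAS and wild-type cells.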

How the data were processed

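RNA from the keratinocyte cultures was measured on Affymetrix Mouse Gene 1.0 ST arrays, 1 per sample. The deposited log2 values were made by the authors with RMA (version not given in the sources used here), per the submitters' processing notes, and were used as they stood. Groups came from the sample titles. Platform annotation gave 21789 of 35511 clusters a single symbol, and 21698 of these matched a current record by Entrez ID. Clusters above their array's 30th percentile on at least 3 arrays were kept, and a gene with several kept clusters (815 genes) took the one with the highest mean.

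A group-means model over all 12 arrays was fitted with limma 3.58.1 in R 4.3.3 (8 residual and 8.02 prior degrees of freedom). P-values are two-sided, with Benjamini-Hochberg adjustment across the 15868 genes within each comparison, and calls were made at an adjusted p under 0.05. The fit was tested on simulated data. Where no array of the lower group exceeded its background, the difference is a bound, set against that group's mean background, and where neither group exceeded it none is given. RMA compresses differences near background. The number of arrays limits the precision. Members and lists were chosen with earlier results of these data known. In each comparison and list, the 2 called genes with the largest rise and the 2 with the largest fall could be named, and Mst1 always. Mt1 is named outside this rule and was chosen with its values known. A member's nearest genes were the 5 with the highest correlation, not given for Hgf, which is below background on 6 arrays. Klkb1, F11, Serpina5 and Mapk3 were among the listed genes not analysed here, having no single-symbol cluster that passed the filter. Alternatives covered the filter, scaling, array weights, the groups fitted, a replicate block, the variance trend, the cluster rule and each left-out array.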

Additional observations from a re-analysis of the deposited data

How the results depend on the processing

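Of 709 comparisons of a member's value with an alternative, 656 kept direction and side of the threshold, 27 passed it newly, 4 lost it (Plxnb1 in MT-HGF over RAS cells, given above) 18 changed sign, all of these for differences that were not called, and 4 moved, which are the bounds for Hgf. The calls for Met, Gab1, Mst1r and Spint1 given as rises or falls were kept under every alternative run. With array weights, 8096 genes were called in RAS over wild-type cells (5158 in the report), 3925 in AG1478-treated over MT-HGF cells (2615), and 5 members in AG1478-treated over wild-type cells (3). The adaptors called with array weights were 14, 15 and 13 in MT-HGF over wild-type, RAS over wild-type and MT-HGF over RAS cells (8, 8 and 7 in the report). All genes called rose too, to 8434, 8096 and 5605 in the same order (6496, 5158 and 4131 in the report). The cause was not tested. For the named list genes 705 values kept call and direction, 14 lost the call (Cbl, Plat, Adam10 and Mst1, given above; Cbl in RAS cells also with only the 2 groups fitted, adjusted p = 0.0626) and 1 changed sign (Mt1 in MT-HGF over wild-type cells, -0.002555 to 0.1635 over left-out arrays). Signs changed for St14 in RAS over wild-type cells (-0.01878 after quantile normalization, -0.01284 after median centring, -0.01971 with array weights), Met in MT-HGF over RAS cells (0.03806 with array weights), and, in AG1478-treated over wild-type cells, Met (0.01217 after quantile normalization, 0.05579 with array weights) and Gab1 (-0.02351 after median centring). Leaving out single arrays gave St14 -0.03239 to 0.01502 in MT-HGF over wild-type, -0.01845 to 0.01882 in RAS over wild-type and -0.03554 to 0.01186 in MT-HGF over RAS cells. It gave Met -0.07605 to 0.0288 in MT-HGF over RAS cells, and in AG1478-treated over wild-type cells Met -0.07015 to 0.07872 and Gab1 -0.03154 to 0.05252. With all chemosensory genes as background the log2 bounds for Hgf were 4.45 and 4.42 in MT-HGF over wild-type and RAS cells (3.73 and 3.70 in the report), and 4.51 and 4.48 in AG1478-treated over wild-type and RAS cells. With replicate number as a block, 6558 genes were called in MT-HGF over wild-type cells and Spint2 passed there (adjusted p = 0.035) and in RAS over wild-type cells (adjusted p = 0.0357), over alternatives from 0.00982 to 0.274 and from 0.0114 to 0.222. The numbers were not taken as a pairing. Same-numbered arrays of different groups correlated above 0.1 in their deviations in 7 of 18 cases (-0.44 to 0.53). Among MT-HGF, RAS and wild-type arrays, replicates 1 and 3 did so in every pair of groups (0.27 to 0.53). Replicate 2 did so in none of these pairs (-0.24 to 0.09). Whether same-numbered arrays of these groups share a source was not tested. Signal near the array background limits what can be said of Hgfac, Hpn and Hgf without the transgene.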
